A study of Homo sapiens with 6 samples.

Results

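The human mitochondrial genome is a small circular DNA that carries its own rRNAs, tRNAs and a few proteins of the respiratory chain. The genes described here are the entries of the deposited table whose symbol starts with MT-, which are 37 of 60605 listed genes: 13 coding for proteins, 2 for rRNAs and 22 for tRNAs. They were followed in Huh-7 cells, an established human hepatoma line. All cells had been made lipid-rich with 100 µM oleic acid for 24 h and starved. Control cells then received vehicle (DMSO, 0 µM pectolinarigenin) and treated cells 100 µM of the plant flavone pectolinarigenin for 24 h, with 3 libraries in each group. Nothing in the labels says whether a group's libraries came from different cultures. The p-values therefore reflect the spread among these libraries alone, which may be technical, and 1 cell line is the source of them all.

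Both strands of mitochondrial DNA are transcribed into long precursors. Most genes are read from the heavy-strand promoter, whereas MT-ND6 and a minority of tRNAs lie on the opposite strand. The tRNA sequences sit between most of the coding genes, and their excision releases the mRNAs and rRNAs. Because most members start out on the same precursor, unequal steady-state levels are generally attributed to differences in RNA stability and processing. The encoded proteins are core subunits of complexes I, III and IV and of the ATP synthase (complex V), which work together with many nuclear-encoded subunits. Mature mitochondrial mRNAs mostly carry short poly(A) tails, except that MT-ND6 mRNA is largely without one. In liver cells this system supports fatty acid oxidation, ketone formation and biosynthesis.

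Total counts were 15140022 to 20311261 per library. The hepatocyte identity of the cells was visible in 8 of 8 listed hepatocyte markers that passed the expression filter (a mean of at least 1 FPKM, that is, counts scaled by gene length and by library total). Of these, APOA2 was called higher and 6 were called lower by edgeR, beside 25.3% of all tested genes in each direction. ALB, the serum albumin, averaged 5475 FPKM in control and 3530 FPKM in treated libraries. Of 7 markers of other cell types, the leukocyte markers PTPRC and CD3E had 0 to 3 counts per library, and only LYZ (39.6 and 64.4 FPKM in control and treated libraries on average) and PECAM1 (2.47 and 1.22 FPKM) passed the filter. Among 18 listed RNAs made without a poly(A) tail only RN7SL1 passed (71.2 and 78.5 FPKM on average), and every other had at most 9 counts in any library.

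Mitochondrially encoded genes took 5.34%, 5.38% and 5.18% of all listed counts in controls 1 to 3. After treatment the share was 4.81%, 5.10% and 5.64%, in the order of libraries 1 to 3. The treated libraries thus lay on both sides of the controls, with 2 below all controls and library 3 above them. The group means were 5.30% ± 0.10 and 5.19% ± 0.42 (SD, n = 3 each), a difference smaller than the spread of the treated group (exact permutation p = 0.70, two-sided, where 3 against 3 libraries cannot give less than 0.10). In bulk libraries like these, fewer cells of a kind and less RNA per cell cannot be told apart. The same held for the protein-coding members alone, at 3.98% ± 0.08 and 3.97% ± 0.44 (SD, n = 3 each; exact permutation p = 1.0). Within the treated group the protein-coding share was 3.64%, 3.79% and 4.46% in libraries 1 to 3. The 2 rRNAs together held 1.29%, 1.37% and 1.28% in controls against 1.17%, 1.31% and 1.17% after treatment, so treated library 3 was not raised for their sum, most of which is MT-RNR2. By respiratory complex, library 3 was the highest of the 6 libraries for complex I (1.68%, against 1.30% to 1.36% in the other libraries), complex III (0.229%, against 0.160% to 0.172%) and complex V (0.294%, against 0.203% to 0.265%), whereas for complex IV it lay inside the control range of 2.16% to 2.26%. None of the 8 shares tested differed between groups after Benjamini-Hochberg adjustment (exact permutation, smallest adjusted p = 0.80).

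**Figure D1:**
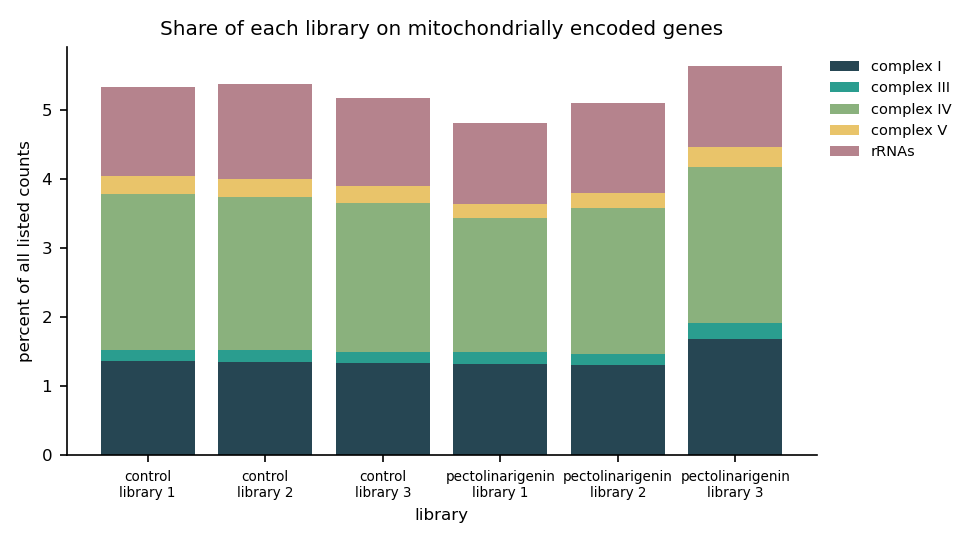
Percent of all listed counts (vertical axis) on mitochondrially encoded genes in each of the 6 libraries (horizontal axis), stacked by respiratory complex and rRNAs. The controls stand between 5.18% and 5.38%, treated libraries 1 and 2 lower at 4.81% and 5.10%, and treated library 3 higher at 5.64%.

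Members were among the most abundant RNAs per unit length in every library. On the FPKM scale, MT-CO1, the catalytic subunit of cytochrome c oxidase, ranked above all other listed genes in each of the 6 libraries, and 7 members were among the 10 highest. In controls MT-CO1 averaged 9220 ± 354 FPKM, the large rRNA MT-RNR2 7908 ± 260, MT-CO3 5939 ± 251, MT-CO2 4774 ± 115 and MT-ND4 3854 ± 38 (SD, n = 3 each). Next came MT-ATP6 at 2917 ± 117, MT-ATP8 at 2629 ± 242, MT-ND4L at 2291 ± 148 and MT-ND3 at 1977 ± 113 FPKM (SD, n = 3 each). The ranges of MT-ATP6 and MT-ATP8 overlapped, as did those of MT-ATP8 and MT-ND4L. MT-ND1, MT-ND5 and MT-ND2 could not be ranked against each other at 1605 ± 38, 1601 ± 10 and 1595 ± 19 FPKM, followed by MT-CYB at 1473 ± 31 and MT-ND6 at 1323 ± 14 (SD, n = 3 each). The small rRNA MT-RNR1 was the lowest of these 15 genes in every library (824 ± 72 FPKM in controls, SD, n = 3).

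The order of levels shifted for a few members in each of the 3 treated libraries. Among these 15 genes MT-ND4 moved from rank 5 in every control library to rank 4 in every treated library, passing MT-CO2. MT-ATP8 moved from rank 7 to rank 9, below MT-ND4L and MT-ND3. MT-ND5 went from ranks 10 to 12 in the controls to ranks 13 and 14 in the treated libraries, and MT-CYB from rank 13 to ranks 10 and 12.

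**Figure D2:**
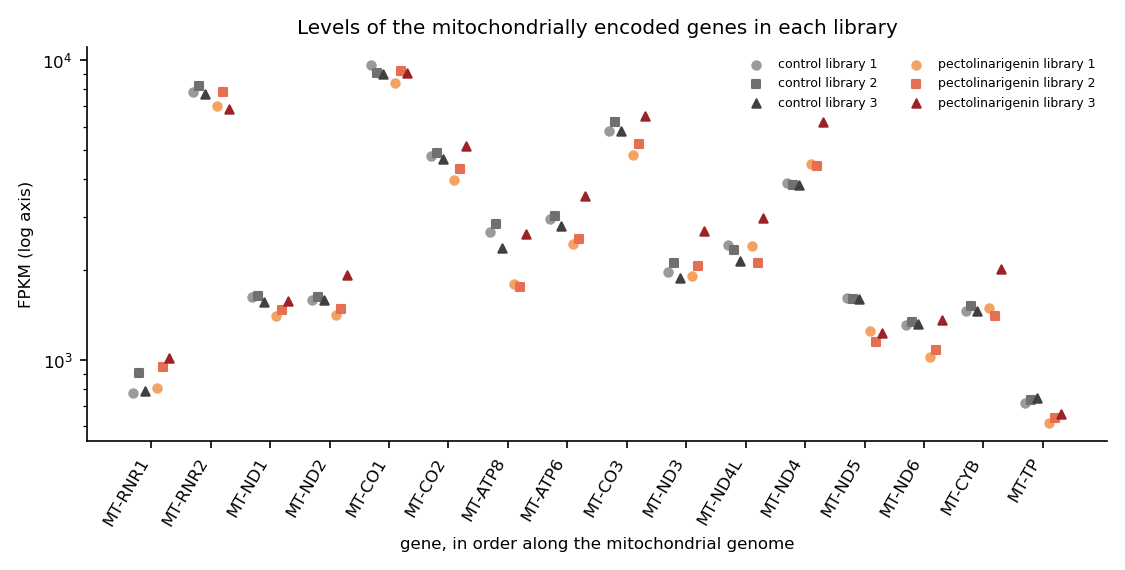
FPKM on a log axis (vertical) of the 2 rRNAs, the 13 protein-coding genes and MT-TP in order along the mitochondrial genome (horizontal), with 1 point per library, grey for controls and orange to red for treated libraries. MT-CO1 and MT-RNR2 are highest, MT-ND5 is lower in all treated libraries, and the dark red triangles of treated library 3 stand above the other libraries for many coding genes.

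Of the 37 members 17 passed the expression filter and were tested with edgeR's quasi-likelihood test, fitted over all 12829 tested genes. At an adjusted p under 0.05, 1 member rose (MT-ND4) and 6 fell (MT-ND5, MT-ATP8, MT-ND6, MT-ND1, MT-RNR2 and MT-TP). Across all tested genes 25.3% were called higher and 25.3% lower, 50.6% in either direction, beside 1 and 6 of the 17 tested members. Whether the members differ from this background was not tested. The median log2 fold change was -0.13 over the tested members and -0.09 over the 13 protein-coding ones, against 7.07e-04 over all tested genes. Members whose 3 treated FPKM values all lay on one side of the controls were MT-ND4, MT-ND5 and MT-TP, the former higher and the other two lower. Over all tested genes 58.9% did not overlap between groups, 33.5% higher and 25.4% lower.

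Complex I, which takes electrons from NADH, has 7 mitochondrially encoded subunits, and these moved in different directions: MT-ND4 rose, MT-ND5, MT-ND6 and MT-ND1 fell, and MT-ND2, MT-ND3 and MT-ND4L did not pass the test. MT-ND5 (ENSG00000198786, mitochondrial genome, 12337 to 14148, plus strand, GRCh38), a proton-pumping membrane subunit, was at 1613, 1598 and 1593 FPKM in the control libraries and 1247, 1145 and 1230 FPKM in the treated ones. Each treated library stood well below each control, and treated library 3 did not stand apart. The fitted change was -0.45 on the log2 scale (SE 0.058, edgeR adjusted p = 1.71e-05), a level that fell by 26.5%. This call was kept in 15 of 15 alternative analyses, which moved the log2 fold change between -0.47 and -0.40.

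MT-ND4 (ENSG00000198886, 10760 to 12137, plus strand), another proton-pumping membrane subunit, was at 3898, 3827 and 3839 FPKM in the control libraries and 4512, 4431 and 6203 FPKM in the treated ones. All treated libraries lay above all controls, library 3 by much more than libraries 1 and 2. Its log2 fold change was 0.35 (SE 0.10, edgeR adjusted p = 0.0101). Without treated library 3 the log2 fold change was 0.17 and the call was kept, and DESeq2 gave the same size of change without a call (adjusted p = 0.0805). Over the alternatives the adjusted p ranged from 1.64e-12 to 0.0805.

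The genes MT-ND4 and MT-ND5 are neighbours on the same strand, and only a block of 3 tRNA genes separates them. These sequences are shown because they lie between the member that rose and the one that fell most. They are written 5′ to 3′ from GENCODE 29 on GRCh38, all on the plus strand, and adjoin each other without a gap between positions 12138 and 12336.
MT-TH (12138 to 12206): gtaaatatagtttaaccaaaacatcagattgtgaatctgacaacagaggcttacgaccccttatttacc
MT-TS2 (12207 to 12265): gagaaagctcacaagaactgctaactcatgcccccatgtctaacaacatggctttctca
MT-TL2 (12266 to 12336): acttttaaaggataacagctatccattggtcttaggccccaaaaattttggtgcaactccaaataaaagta

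Counts of MT-ND5 per count of MT-ND4 were 0.544, 0.549 and 0.546 in controls against 0.364, 0.340 and 0.261 after treatment. This ratio is formed within a library, so it does not depend on scaling between libraries. Controls varied by 0.0026 (SD, n = 3) and all treated libraries were lower, with library 3 the lowest. On the log2 scale the ratio fell by 0.78 (exact permutation p = 0.10, the smallest possible), and by 0.64 without treated library 3. The MT-ND5 ratio to MT-CYB, the next plus-strand coding gene downstream, was 1.76, 1.68 and 1.74 in controls and 1.33, 1.30 and 0.973 in treated libraries. Again the groups did not overlap, while MT-CYB itself was not called. These ratios, like the other ratios of single neighbouring genes below, were chosen after the values were seen.

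MT-ND4L and MT-ND4 share an mRNA and overlap, and so do MT-ATP8 and MT-ATP6. The overlaps are printed because a read that falls in them belongs to both genes, and how such reads were counted is not given in the sources used here. Capitals mark the bases that lie in both genes, lower case the 15 bases on either side (plus strand, GENCODE 29 on GRCh38).
MT-ND4L and MT-ND4 (10745 to 10781): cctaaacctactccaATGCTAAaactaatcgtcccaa
MT-ATP8 and MT-ATP6 (8512 to 8587): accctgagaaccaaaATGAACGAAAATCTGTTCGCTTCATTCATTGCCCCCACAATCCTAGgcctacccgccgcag
The shared stretch has 7 bases in the former pair and 46 in the latter, which is 2.36% of MT-ND4L and 22.2% of MT-ATP8. In both cases the capitals open with the ATG start codon of the downstream gene.

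MT-ND4L, a small membrane subunit of complex I, was at 2421, 2320 and 2131 FPKM in the control libraries and 2396, 2105 and 2979 FPKM in the treated ones. The groups overlapped, and its log2 fold change of 0.086 (SE 0.10) was not called (edgeR adjusted p = 0.496). Relative to MT-ND4 its counts were 0.134, 0.131 and 0.120 in controls and 0.114, 0.102 and 0.104 in treated libraries, a ratio lower in all 3 treated libraries than in any control (log2 difference -0.26, exact permutation p = 0.10, the smallest possible). Since MT-ND4L and MT-ND4 share an mRNA, this ratio compares stretches of the same RNA. The part of read coverage or of counting near the overlap in it was not tested.

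MT-ND6 (ENSG00000198695, 14149 to 14673), the coding member on the minus strand, encodes a further membrane subunit of complex I. It was at 1311, 1338 and 1319 FPKM in the control libraries and 1023, 1075 and 1363 FPKM in the treated ones, so libraries 1 and 2 were below all controls and library 3 was slightly above them. It was called lower with a log2 fold change of -0.23 (SE 0.088, edgeR adjusted p = 0.0377), but passed in only 6 of 15 alternatives (adjusted p from 3.79e-07 to 0.141). The call was lost without any 1 of control libraries 1 (0.0992), 2 (0.104) and 3 (0.0896) or treated libraries 1 (0.126) and 2 (0.141). Measured against the other 6 complex I members in the same library, MT-ND6 separated the groups: the log2 ratio was -4.23, -4.19 and -4.19 in controls and -4.56, -4.47 and -4.49 in treated libraries. All 3 treated libraries were lower, library 3 included, by 0.30 on average (exact permutation p = 0.10, adjusted p = 0.20 over 8 ratios). The summed counts in this ratio include MT-ND4, which rose, and with the median over members in their place the log2 difference was -0.15. Whether the authors counted by strand is not given in the sources used here, and without strand, reads of MT-ND6 and of the transcript opposite to it cannot be told apart.

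MT-ND1 was at 1623, 1630 and 1561 FPKM in the control libraries and 1399, 1466 and 1573 FPKM in the treated ones, with library 3 inside the control range in FPKM. On TMM-scaled counts, the scale of the edgeR test, treated library 3 was slightly below the lowest control (-0.050 and -0.045 from the control mean, log2). MT-ND1 encodes a membrane subunit near the quinone site. Its log2 fold change of -0.15 (SE 0.061, edgeR adjusted p = 0.0457) passed in 5 of 15 alternatives, whose adjusted p spanned 9.09e-04 to 0.161. It lost the call without control libraries 1 (0.133), 2 (0.161) and 3 (0.0871) and without treated libraries 1 (0.0869) and 2 (0.104), each left out in turn. MT-ND2 (1414 to 1920 FPKM over the treated libraries, 1581 to 1616 over the controls) and MT-ND3 (1899 to 2681 against 1873 to 2097), both membrane subunits, overlapped the controls. Neither was called, at log2 fold changes of -0.028 for MT-ND2 (SE 0.093) and 0.13 for MT-ND3 (SE 0.10).

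Summed, the 7 complex I members held a slightly larger part of the protein-coding mitochondrial counts in treated cells. The log2 share was -1.57, -1.57 and -1.55 in controls and -1.46, -1.54 and -1.41 in treated libraries. The groups did not overlap (exact permutation p = 0.10, adjusted p = 0.20 over 8 ratios). Within these counts MT-ND4 went from 13.3% ± 0.2 to 17.4% ± 1.6 (SD, n = 3 each), while MT-ND5 went from 7.29% ± 0.10 to 5.56% ± 0.61. MT-ND1 and MT-ND6 changed by -0.27 and -0.22 percentage points, and MT-ND3, MT-ND4L and MT-ND2 by 0.20, 0.15 and 0.021. The largest rise was thus that of MT-ND4. With median counts in place of both sums the log2 difference was -0.23, in the opposite direction. That value sets MT-ND1 in every library against a coding gene that differs between libraries, and counts also depend on gene length. The median log2 fold change of the 7 complex I members was -0.028.

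Complex III has MT-CYB, its cytochrome b, as mitochondrially encoded subunit. MT-CYB was at 1454, 1508 and 1455 FPKM in the control libraries and 1489, 1402 and 2008 FPKM in the treated ones. Library 3 was high and libraries 1 and 2 lay near the controls, so the fitted log2 fold change of 0.11 (SE 0.10) was not called (edgeR adjusted p = 0.381).

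Complex IV, cytochrome c oxidase, has MT-CO1, MT-CO2 and MT-CO3 as its catalytic core, and none of the 3 was called by edgeR, DESeq2 or limma, nor did any reach an unadjusted p under 0.05 (0 of 3 with each tool). MT-CO1 was at 9629, 9031 and 8999 FPKM in the control libraries and 8406, 9168 and 9041 FPKM in the treated ones, a log2 fold change of -0.093 (SE 0.063, edgeR adjusted p = 0.231). In FPKM, treated libraries 2 and 3 lay inside the control range of MT-CO1, and library 1 lay below it. On TMM-scaled counts, treated libraries 1 to 3 (-0.18, -0.055 and -0.049 from the control mean, log2) were all below the lowest control (-0.0395). MT-CO2 (3983, 4327 and 5160 FPKM in treated libraries, against 4663 to 4892 in controls) and MT-CO3 (4838, 5263 and 6528 FPKM, against 5784 to 6229) showed the split within the treated group: libraries 1 and 2 were below all controls and library 3 above them. Their log2 fold changes were -0.13 (SE 0.082) and -0.14 (SE 0.091). Without treated library 3 both were called lower, at -0.24 (edgeR adjusted p = 2.15e-04) and -0.28 (adjusted p = 6.71e-05).

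Complex V, the ATP synthase, has 2 mitochondrially encoded membrane subunits, MT-ATP6 and MT-ATP8. MT-ATP8 (ENSG00000228253, 8366 to 8572) was at 2675, 2844 and 2368 FPKM in the control libraries and 1785, 1756 and 2631 FPKM in the treated ones. Libraries 1 and 2 were far below the controls and library 3 was among them. It was called lower (log2 fold change -0.39, SE 0.12, edgeR adjusted p = 0.0165). That call was kept in 8 of 15 alternatives, with adjusted p between 2.41e-09 and 0.138, and lost without control libraries 1 (0.0712) or 2 (0.0766) or treated libraries 1 (0.0638) or 2 (0.0809). With treated library 3 left out, the change was -0.62. MT-ATP6, which forms the proton path, was at 2941, 3020 and 2790 FPKM in the control libraries and 2439, 2522 and 3526 FPKM in the treated ones, and was not called (log2 fold change -0.080, SE 0.11, edgeR adjusted p = 0.567), but was lower without treated library 3 (-0.28, adjusted p = 4.31e-05). Counts of MT-ATP8 per count of MT-ATP6 were 0.277, 0.286 and 0.258 in controls and 0.222, 0.212 and 0.227 in treated libraries. This ratio was lower in all 3 treated libraries, library 3 included (log2 difference -0.31, exact permutation p = 0.10, the smallest possible). This pair also shares an mRNA, and the part of read coverage or of counting in the overlap was not tested.

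**Figure D3:**
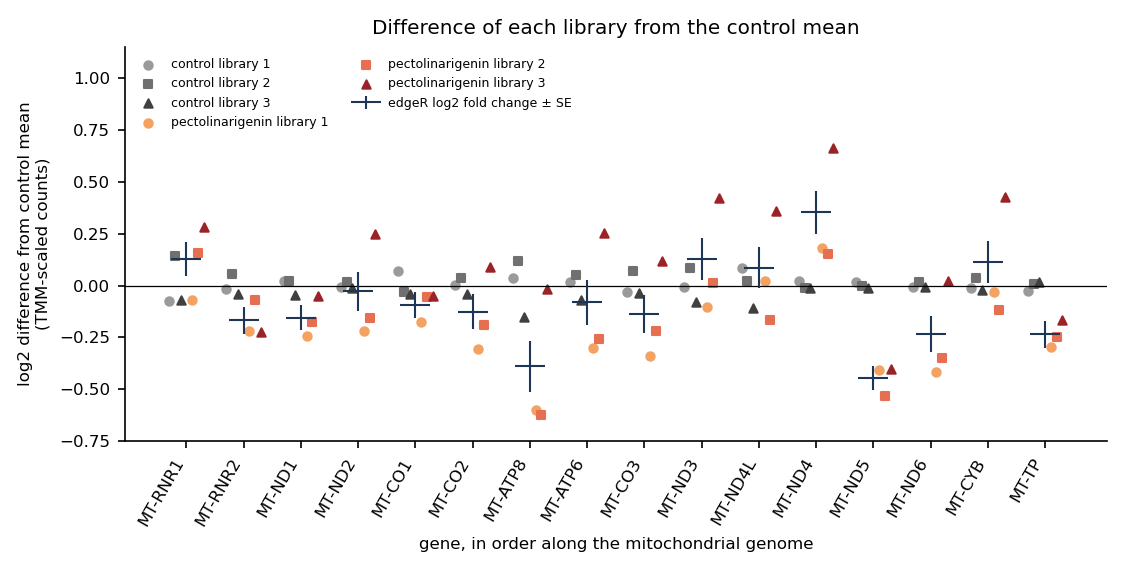
Log2 difference of each library from the control mean (vertical axis, TMM-scaled counts) for 16 members in order along the mitochondrial genome (horizontal axis), with points for libraries and dark blue bars for the edgeR log2 fold change ± SE. MT-ND5 lies near -0.45 in all treated libraries beside MT-ND4 at 0.35, and treated library 3 (dark red triangles) stands above treated libraries 1 and 2 for most coding genes.

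The treated libraries differed among themselves more for the coding members than for most genes. For each gene the log2 level in treated library 3 was set against the mean of libraries 1 and 2, on TMM-scaled counts. It was higher in library 3 for 13 of 13 protein-coding members, with a median of 0.43, against 6416 of 12829 tested genes and a median near 0 (3.38e-05). The size varied by member, from 0.60 for MT-ATP8, 0.53 for MT-ATP6 and 0.50 for both MT-CYB and MT-ND4 to 0.068 for both MT-CO1 and MT-ND5. For the rRNAs it was 0.24 (MT-RNR1) and -0.079 (MT-RNR2). Nuclear-encoded subunits of the respiratory complexes were shifted the same way by less, with 78 of 79 above 0 and a median of 0.16. Of the 13 protein-coding members 9 had their highest FPKM of all 6 libraries in treated library 3, and 8 were below every control in FPKM in both treated libraries 1 and 2. How many of all tested genes met either condition was not counted, so these counts have no background beside them. The largest total count was also that of treated library 3, and the part of depth or of sample handling in this difference was not tested. With 1 library against 2 these values are a description. Without treated library 3, edgeR called 10 members lower (the 6 above with MT-ND2, MT-CO2, MT-CO3 and MT-ATP6) and 1 higher, and without treated library 1 it called 3 lower and 3 higher (MT-ND4, MT-ND3 and MT-RNR1). Of all 12829 tested genes, these fits called 3186 lower and 3218 higher without treated library 3, and 3265 lower and 3252 higher without treated library 1.

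The 2 rRNAs did not move together. MT-RNR2 (ENSG00000210082, 1671 to 3229), the large-subunit rRNA, was at 7799, 8205 and 7721 FPKM in the control libraries and 7009, 7795 and 6875 FPKM in the treated ones. In FPKM, treated library 2 overlapped the controls and the other treated libraries lay below them. On TMM-scaled counts, the scale of the edgeR test, MT-RNR2 was below the lowest control (-0.0394 from the control mean, log2) in all 3 treated libraries (-0.22, -0.068 and -0.22). It was called lower (log2 fold change -0.17, SE 0.064, edgeR adjusted p = 0.0379), and the call was kept in 8 of 15 alternatives (adjusted p from 0.00845 to 0.224), being lost without control libraries 1 (0.0927), 2 (0.196) or 3 (0.0975). MT-RNR1 (ENSG00000211459, 648 to 1601), the small-subunit rRNA, was at 778, 907 and 787 FPKM in the control libraries and 809, 949 and 1013 FPKM in the treated ones, with overlapping groups and a log2 fold change of 0.13 (SE 0.082, edgeR adjusted p = 0.214). The log2 ratio of MT-RNR2 to MT-RNR1 counts was 3.89 to 4.03 over the controls and 3.82, 3.75 and 3.47 in treated libraries, lower in all 3 treated libraries (difference -0.29, and -0.19 without treated library 3, exact permutation p = 0.10, adjusted p = 0.20 over 8 ratios). The sum of both rRNAs relative to the coding members did not separate the groups (log2 ratio -1.65, -1.55 and -1.61 in controls, -1.64, -1.54 and -1.93 in treated libraries, exact permutation p = 0.70).

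**Figure D4:**
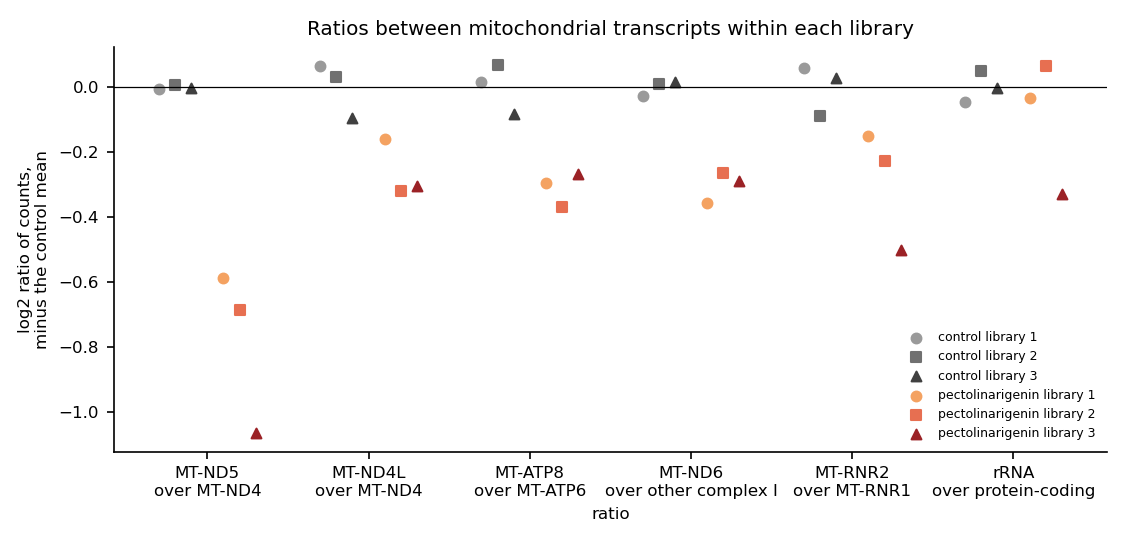
Log2 ratio of counts between mitochondrial transcripts in each library, minus the control mean (vertical axis), for 6 ratios (horizontal axis). The first 5 ratios are lower in all 3 treated libraries than in all 3 controls, MT-ND5 over MT-ND4 by the most. The last, rRNA over protein-coding, overlaps.

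The tRNA genes were almost absent from the table. Of the 22 tRNAs 19 had 0 counts in each of the 6 libraries. A count of 0 allows a level of up to 0.148 to 0.198 CPM (counts scaled to the library total), depending on the library, taken as 3 counts and for counting error only. Reads that were not assigned to a gene are not covered by this limit. The 14 tRNAs on the plus strand were all at 0. Of the 8 on the minus strand, 3 had counts: MT-TP, MT-TC and MT-TY, which carry proline, cysteine and tyrosine. MT-TY had 3 counts in all and was not tested. The sequences of the other pair are printed because they are the tRNAs that passed the filter (5′ to 3′ on their own, minus strand, GENCODE 29 on GRCh38).
MT-TP (15956 to 16023): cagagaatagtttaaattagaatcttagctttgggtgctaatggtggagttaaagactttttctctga
MT-TC (5761 to 5826): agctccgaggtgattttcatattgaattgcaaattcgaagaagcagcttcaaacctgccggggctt

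MT-TP had 907, 935 and 766 counts in controls against 671, 707 and 914 counts after treatment. Per length and depth these are 716, 737 and 744 FPKM in controls and 615, 638 and 662 FPKM in treated libraries, so every treated library was below every control. It was called lower (log2 fold change -0.23, SE 0.064, edgeR adjusted p = 0.00661), also in 15 of 15 alternatives (adjusted p up to 0.0329). MT-TP is 68 bases long and lies at the edge of the non-coding control region, with no annotated gene on its other side. Whether its reads came from the mature tRNA or from longer RNA crossing it was not tested. MT-TC rests on 9, 10 and 3 counts in controls and 0, 5 and 6 in treated libraries, and its log2 fold change of -1.02 (SE 0.67) was not called (edgeR adjusted p = 0.225). It is 66 bases long, overlaps MT-TY by 1 base and is separated from MT-TN by 31 unannotated bases. The near absence of most tRNAs went with that of the RNAs made without a poly(A) tail given above, and the part of the library preparation in these values was not tested. Most of the tRNA genes at 0 adjoin another gene without a gap. How reads reaching into a neighbouring gene were counted is not given in the sources used here, and its part was not tested either.

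Copies of mitochondrial DNA in the nuclear genome share sequence with the members, so the division of reads between them is uncertain. The table listed 415 such copies by symbol, of which 302 had 0 counts and 10 passed the expression filter. A block on chromosome 1 held the 3 with the most counts (MTATP6P1, MTND2P28 and MTND1P23) and MTCO1P12. MTATP6P1 (chromosome 1, 633696 to 634376, GRCh38) differed from MT-ATP6 at 10 of 681 aligned bases, and its longest run identical to MT-ATP6 was 141 bases. The 90-base window where they differ most is shown, with capitals at the bases that differ (plus strand in both, GENCODE 29).
MT-ATP6 (8629 to 8718): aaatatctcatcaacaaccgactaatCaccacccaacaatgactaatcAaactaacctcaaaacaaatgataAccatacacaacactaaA
MTATP6P1 (chromosome 1, 633798 to 633887): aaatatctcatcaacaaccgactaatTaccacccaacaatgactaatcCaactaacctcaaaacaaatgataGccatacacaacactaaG
Counts of MTATP6P1 were 17.1%, 16.8% and 18.2% of those of MT-ATP6 in controls and 18.6%, 18.1% and 18.0% in treated libraries, so copy and member kept nearly the same proportion in all 6. MTND2P28 stood at 5.81% to 6.12% of MT-ND2 and MTND1P23 at 5.50% to 6.64% of MT-ND1. Neither of these copies nor MTATP6P1 was called, with log2 fold changes of -0.046 (SE 0.085), -0.087 (SE 0.093) and -0.011 (SE 0.10). Of the 10 copies 5 were called lower and 0 higher (edgeR): MTCO1P12, which had 0.383% to 0.476% of the counts of MT-CO1, and 4 with fewer than 100 counts in any library. Over all tested genes 25.3% were called lower and 25.3% higher. MTCO1P12 was named after its values were seen.

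Nuclear partners of these genes were read from lists of respiratory chain subunits and of genes for mitochondrial DNA and RNA metabolism. Of 79 nuclear-encoded subunits of complexes I to V all passed the filter, 5 were called higher and 7 lower, and 67 were not called, against a background of 50.6% called over all tested genes. The median log2 fold change was -0.0086. In complex I, 3 of 37 rose (NDUFA6 at 0.31, NDUFC2 at 0.22 and NDUFS7 at 0.18) and 2 fell, NDUFS1, the largest iron-sulfur subunit, at -0.37 (SE 0.055) and NDUFC1 at -0.23. In complex II, the succinate dehydrogenase that has no mitochondrially encoded subunit, SDHB rose by 0.20 (SE 0.061) and SDHC fell by 0.38 (SE 0.054). None of 9 complex III subunits was called by edgeR, DESeq2 or limma (0, 0 and 1 at an unadjusted p under 0.05). In complex IV COX5A rose (0.18) and NDUFA4 and COX7B fell (both -0.21), and in complex V, where 0 of 18 were called higher (edgeR, also 0 at an unadjusted p under 0.05; limma called 1), ATP5MC1 (-0.45, SE 0.067) and ATP5F1B, the catalytic beta subunit (-0.24, SE 0.057), fell. As for the mitochondrially encoded subunits, the treated libraries bore on these counts: without treated library 3, 22 subunits were called lower and 3 higher, and without treated library 1, 6 and 15. Of all 12829 tested genes, 3186 were called lower and 3218 higher in the former fit, and 3265 and 3252 in the latter.

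Of 54 tested genes acting on mitochondrial DNA and RNA, 22 were called higher, 8 lower and 24 not at all, with a median log2 fold change of 0.13. The background over all tested genes was 25.3% in each direction. Among those for transcription and replication of the mitochondrial genome 8 of 21 rose and 2 fell. TWNK, the replicative helicase, was at 448, 488 and 376 counts in controls and 755, 679 and 1113 in treated libraries and rose by 0.90 on the log2 scale (SE 0.096, edgeR adjusted p = 2.61e-06). TOP1MT (0.46, SE 0.073), the mitochondrial topoisomerase, TFB2M (0.42, SE 0.081), which opens the promoters for the RNA polymerase, and PPRC1 (0.34, SE 0.065), a coactivator related to PGC-1, rose as well. POLG, the catalytic subunit of the DNA polymerase, fell by 0.56 (SE 0.077) and TFB1M, the methyltransferase of the small rRNA MT-RNR1, by 0.35 (SE 0.093). The RNA polymerase itself, POLRMT (0.018, SE 0.068, edgeR adjusted p = 0.845), and the packaging and transcription factor TFAM (-0.037, SE 0.058, adjusted p = 0.623) were not called.

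In RNA processing and stability 14 of 33 rose and 6 fell, beside 25.3% of all tested genes called in each direction. Those with the smallest p among the rises were the tRNA methyltransferase TRMT5 (0.62, SE 0.069), TRMT10C (0.47, SE 0.074), a subunit of the enzyme that cuts the 5′ ends of mitochondrial tRNAs, and the pseudouridine synthase PUS1 (0.43, SE 0.084). The other subunits of the 5′-cutting enzyme were at -0.47 (PRORP, the lowest log2 fold change of this list) and -0.079 (HSD17B10). Among the falls were PTCD3 (-0.39, SE 0.056), a protein of the small mitoribosomal subunit, GTPBP3 (-0.43, SE 0.072) and NSUN3 (-0.32, SE 0.084), which modify mitochondrial tRNAs. LRPPRC, which stabilizes mitochondrial mRNAs, fell by 0.18 (SE 0.052, edgeR adjusted p = 0.00998). Its partner SLIRP was not called (0.15, SE 0.095, adjusted p = 0.195), but was called higher by edgeR without treated library 1 (0.25, adjusted p = 0.0283) and stood at 0.049 without treated library 3. MTPAP, the mitochondrial poly(A) polymerase, rose by 0.20 (SE 0.067, edgeR adjusted p = 0.0217), a call lost without control libraries 2 (0.105) or 3 (0.0911) or treated library 2 (0.0792).

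**Figure D5:**
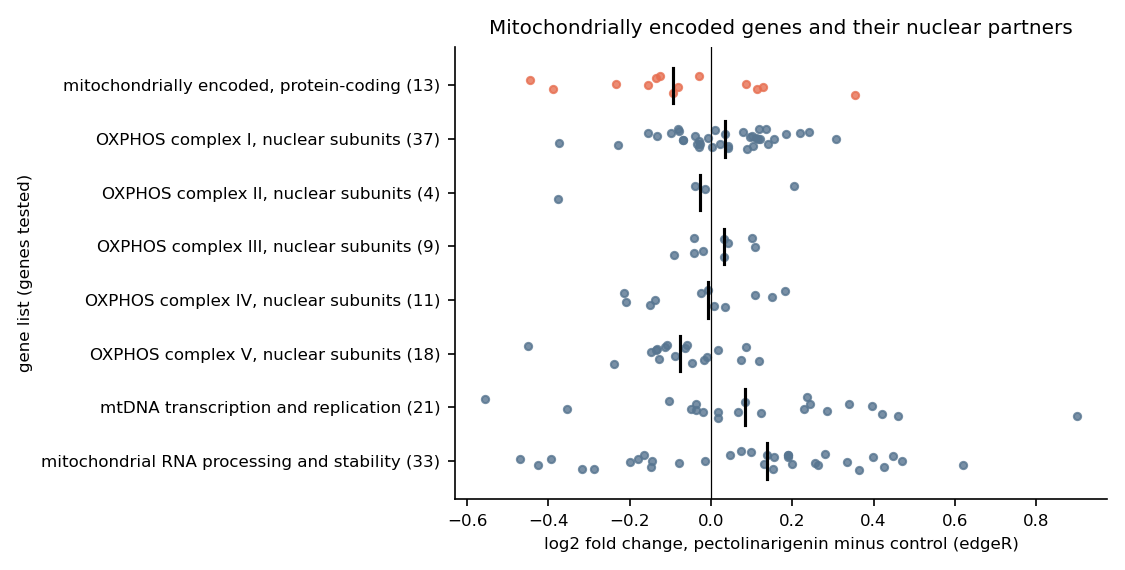
EdgeR log2 fold changes (horizontal axis, pectolinarigenin minus control) for the 13 mitochondrially encoded coding genes and the tested genes of 7 nuclear lists (vertical axis, number tested in parentheses), with 1 point per gene and a black bar at each median. Nuclear subunits of the respiratory complexes (OXPHOS) centre near 0, and the outermost points are TWNK at 0.90 and POLG at -0.56.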

How the data were processed

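RNA sequencing of 6 Huh-7 libraries was read from 1 deposited table. The authors deposited whole-number counts per gene that had not been normalized, and FPKM values. For 16 of 16 members with enough counts, the FPKM fit the GENCODE 29 gene length within 1 base, with the library's summed counts as depth. Cutadapt 1.9.1, HISAT2 2.0.1, HTSeq 0.6.1 and GRCh38 are named, with no order, per the submitters' processing notes. For strand setting, annotation, RNA selection and multiply mapping reads, the sources used here give nothing.

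Counts of genes with a mean FPKM of at least 1 (12829) were fitted with edgeR 4.0.16 in R 4.3.3 (quasi-likelihood, TMM factors, no covariate, two-sided, Benjamini-Hochberg over all tested genes, threshold 0.05), after a test on simulated data. SEs derive from the F statistic. Shares and ratios within a library used exact permutation tests. Alternatives used DESeq2 1.42.0, limma 3.58.1, other scalings and filters, a replicate block and each library left out. All 37 members are reported. Named nuclear genes are, per list, up to 3 called genes with the smallest p in each direction, and 7 fixed genes, among them TFAM and POLRMT. PRORP and HSD17B10 were named after their values were seen. The members, lists and tests were chosen with earlier results of these data known.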

Additional observations from a re-analysis of the deposited data

How the results depend on the processing

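MT-ND5 and MT-TP kept direction and call in 15 of 15 alternatives, and MT-ND4 in 14. The other calls depend on single libraries, as given above, and on the method. MT-RNR2, MT-ND1 and MT-ND6 were not called without TMM factors, at a minimum of 10 counts in 3 libraries, or in limma. MT-ND1 was also not called without an expression filter. MT-ATP8 was not called in DESeq2 or limma. Members called higher numbered 1, with 0 in DESeq2 (1 at an unadjusted p under 0.05), 3 without an expression filter and 1 to 3 without single libraries. Those called lower numbered 6, with 3 without TMM factors, 3 at a minimum of 10 counts in 3 libraries, 2 in limma with either pseudocount (1 or 0.1) and 2 to 10 without single libraries. Without TMM factors and in limma, the median of all tested genes was 0.038 and 0.030 (pseudocount 1). Nuclear respiratory subunits called higher numbered 5, with 3 in DESeq2, 9 without TMM factors, 3 under the stricter filter (mean FPKM of 5 or more), 9 in limma and 2 to 15 without single libraries. Those called lower numbered 7, with 11 under the stricter filter and 5 to 22 without single libraries. For mitochondrial DNA and RNA metabolism, 8 fell, with 5 under the stricter filter, where 34 were tested, and 15 to 24 rose without single libraries. Scaling from nuclear genes only left the members' counts at 1 and 6. Of all 12829 tested genes, the fits without single libraries called 2628 to 3252 higher and 2664 to 3265 lower.

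Directions turned in values that were not called over all 6 libraries. Without single libraries the range was -0.19 to 0.056 for MT-ND2, -0.28 to 0.018 for MT-ATP6, -0.042 to 0.23 for MT-ND3, -0.070 to 0.20 for MT-ND4L, -0.071 to 0.22 for MT-CYB, -0.035 to 0.074 for POLRMT and -0.072 to 0.0026 for TFAM. MT-ND2 was 0.0080 without TMM factors, and TFAM 0.0011 without them and 0.0018 and 0.0019 in limma. The share difference ranged from -0.34 to 0.071 percentage points, and rRNA over coding counts from -0.18 to 0.015. The complex I share turned to -0.23 with median counts in place of both sums. The cause was not tested.

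Same-numbered libraries did not deviate together (r of -0.0069, 0.025 and -0.012), so the numbers were not taken to pair them. With a replicate block 1 member was called higher and 6 lower. A ratio of minus-strand to plus-strand tRNAs could not be formed, since plus-strand tRNAs had no counts. Counts limit MT-TC and MT-TY.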
